A study of Eriocheir sinensis with 9 samples.

Results

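In eyestalks of Eriocheir sinensis, the Chinese mitten crab, 200 RNA isoforms were picked out that stood high at 22 °C, were much lower at 27 °C and stayed at about that lower level at 32 °C. They were chosen on the values described here. An isoform had to reach 1 FPKM in at least 3 of the 9 libraries, which 101114 of 267789 isoforms did. FPKM is a level in which a transcript's fragments are scaled for its length and for the size of the library. On the log2(FPKM + 1) scale, the mean at 27 °C minus the mean at 22 °C had to be -1.5 or lower, which 3246 isoforms met. The mean at 32 °C minus the mean at 27 °C also had to lie between -0.5 and 0.5, which left 827. All 6 values at 27 and 32 °C had to lie below every value at 22 °C, which left 443, and the 200 with the lowest difference from 22 to 27 °C were kept. The last isoform kept and the first one left out differed little, with -2.0726 and -2.0709 for that difference. All 3 comparisons between temperatures entered this choice, so the levels below describe the members and are no test of an effect of temperature.

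Crabs between molts, labelled WT and all labelled untreated, had been kept at 25 °C before the experiment, which lies between 2 of the temperatures compared here. They were then divided over 6 temperatures, with 3 parallel replicates of 16 crabs at each. The data are 9 libraries of eyestalk RNA, 3 each from 22, 27 and 32 °C, whose temperature and replicate number come from the library titles. The design text of the series speaks of muscle and of ATAC sequencing as well, whereas every sample label says eyestalk. The labels give neither the length of the exposure nor the number of crabs behind a library, so the spread between libraries may be partly technical.

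The crustacean eyestalk bears the eye on top of its optic ganglia and contains neurosecretory cells, the X-organ, whose axons end in the sinus gland. The sinus gland releases peptide hormones that act on molting, blood sugar, pigment movement and reproduction. Crabs do not regulate their body temperature, so tissue follows the water. In ectotherms, warming commonly alters transcript levels in many pathways, often well inside the range the animal survives. Each isoform is 1 row of the table, and a gene may have several rows. The identifiers are numbers without gene names, and 0 of them matched the RefSeq gene table of assembly ASM2467909v1. Neither roles, marker genes of the tissue nor sequences can therefore be given for these isoforms. Members are described by level, by their rank in the difference from 22 to 27 °C (rank 1 is the lowest value), and in 2 cases by identifier.

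Summed FPKM ran from 1704917 to 2227273 per library, and between 164115 and 174929 isoforms were above 0. Read totals are unknown. The number of isoforms of at least 1 FPKM was 78012 to 83822 at 22 °C, 84082 to 84991 at 27 °C and 81852 to 88113 at 32 °C.

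Most members were transcripts of modest level at 22 °C that averaged under 1 FPKM over the warmer libraries. Only 78 of the 200 were below 1 FPKM in all 6 of these, and the others reached 1 FPKM in at least 1. The median member stood at 10.3, 11.9 and 9.66 FPKM in replicates 1, 2 and 3 at 22 °C. In the 27 °C libraries the median was 0, 0.14 and 0 FPKM, and in each 32 °C library it was 0. The lower state was thus close to or at 0 for the typical member. Averaged over the 22 °C libraries, single members ran from 3.50 to 4201 FPKM, with a middle range between quartiles of 6.59 to 22.6. Averaged over the 6 warmer libraries, they ran from 0 to 913 FPKM, with quartiles at 0.0383 and 2.32. Of the 200 members, 145 averaged under 20 FPKM at 22 °C, and 11 averaged 100 or more. In a whole eyestalk, fewer cells of a type and less RNA per cell cannot be told apart.

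**Figure D1:**
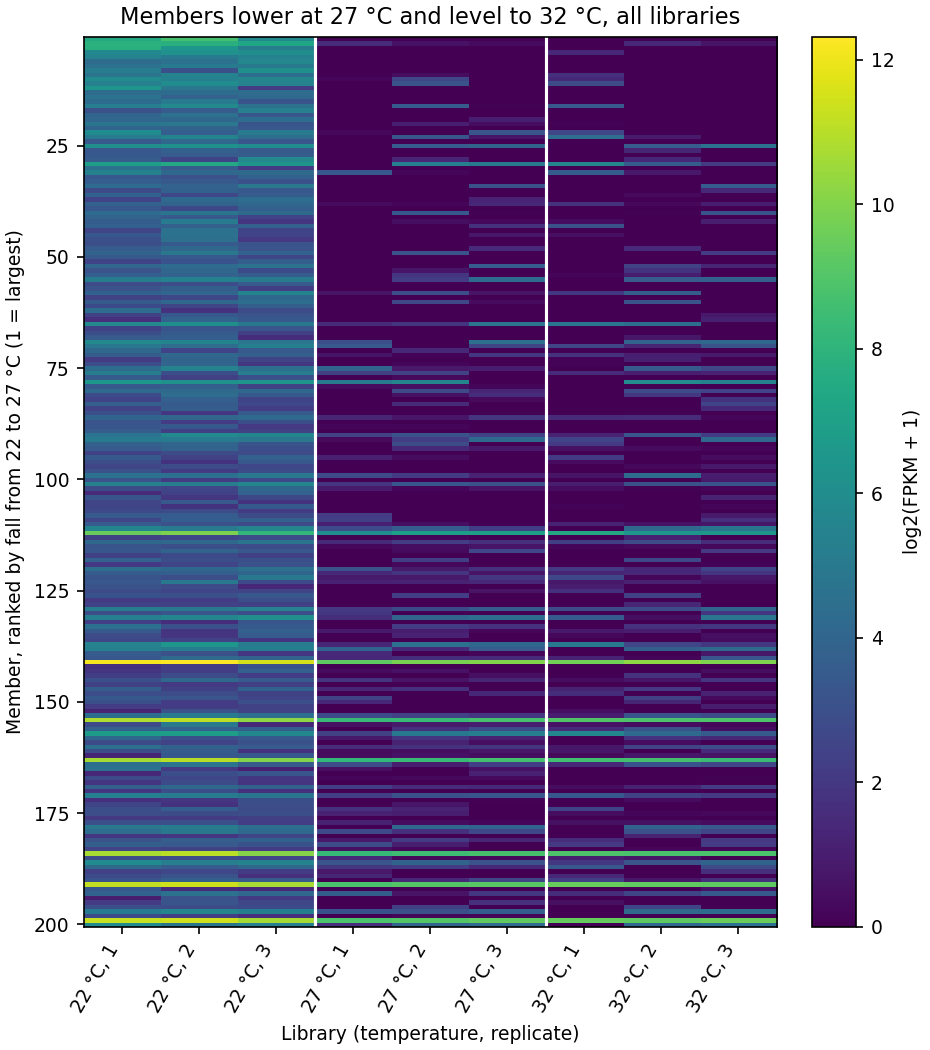
Level of each member as log2(FPKM + 1) in colour, with the 9 libraries in columns and the 200 members in rows, ranked by the difference from 22 to 27 °C. Nearly all rows are dark in the 6 warmer libraries, and a few bright rows, the most abundant members, keep a high level throughout.

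The difference from 22 to 27 °C had a median of -2.64 on the log2(FPKM + 1) scale and ran from -7.32 to -2.07. Its median over all 101114 isoforms was 0.09. The difference from 27 to 32 °C had a median of 0 and ran from -0.48 to 0.50, limits that the choice set. It was above 0 in 84 members, below 0 in 68 and exactly 0 in 48. Those 48 were listed at 0 in all 6 warmer libraries. On this scale an isoform that goes to 0 cannot show a larger difference than its own level allows. The ranking therefore mixes the level at 22 °C with the size of the drop.

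**Figure D2:**
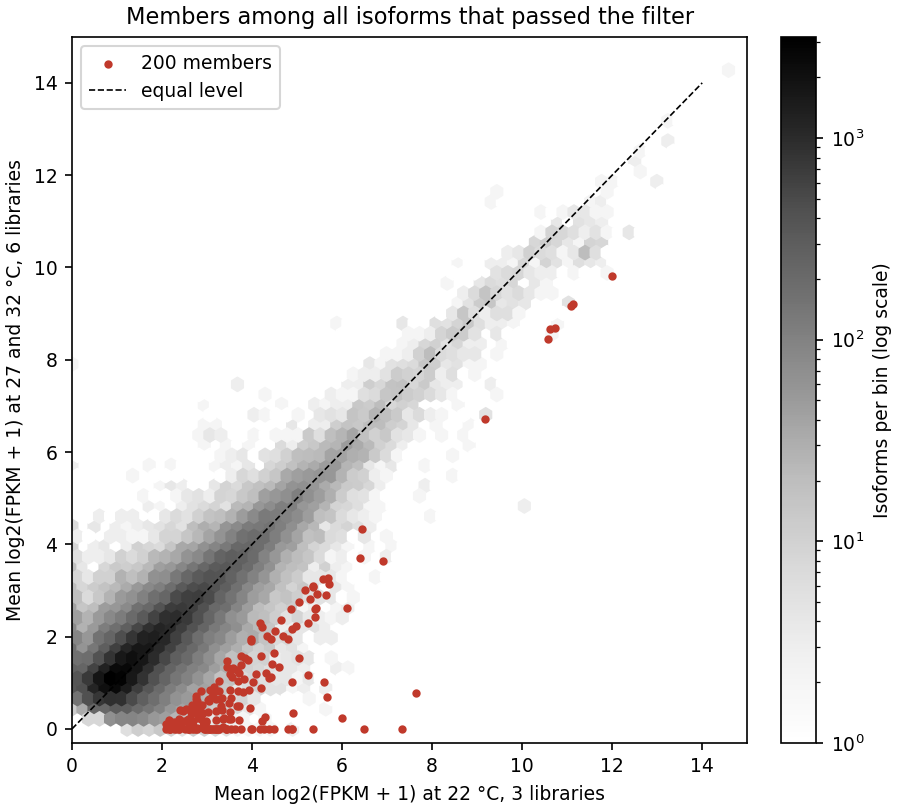
Mean log2(FPKM + 1) at 22 °C (3 libraries, horizontal) against the mean at 27 and 32 °C (6 libraries, vertical) for isoforms that passed the filter, in grey by number per bin, with the 200 members in red and a dashed line of equal level. Many members lie on the horizontal axis at 0, and 6 lie far to the right with high levels on both axes.

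The 200 members were of 3 kinds by their values in the warmer libraries. In 48 members all 6 warmer libraries were at 0, in 113 between 1 and 5 of them were, and in 39 none was. A 0 in such a table can also be an estimate that failed, so these isoforms are called listed at 0, and no fold is given for them. No member was at 0 in any 22 °C library, which the choice already ensured. A single warmer library listed between 96 and 120 of the 200 members at 0. The 27 °C libraries listed 120, 96 and 105 at 0, and the 32 °C libraries 119, 107 and 101, so the ranges of the warmer temperatures overlapped.

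**Figure D3:**
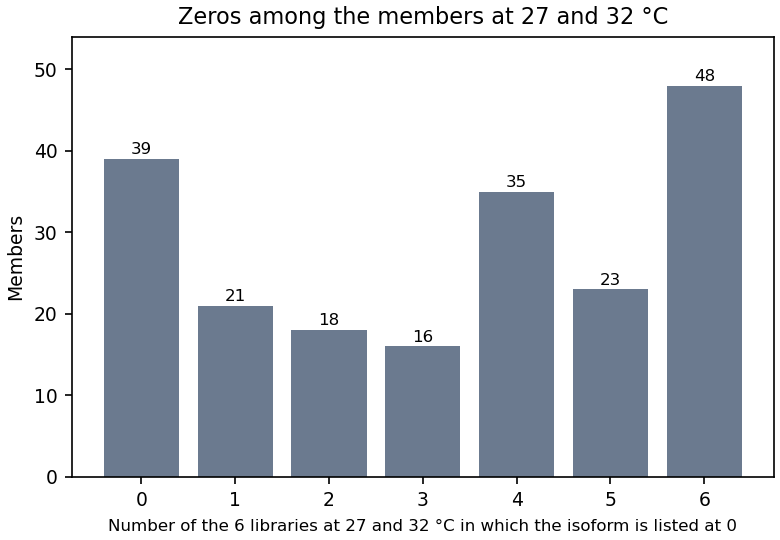
Number of members (vertical) by the number of the 6 libraries at 27 and 32 °C in which the isoform is listed at 0 (horizontal). The bars at the ends stand for 39 members detected in all 6 and 48 members listed at 0 in all 6.

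The lowest rank belonged to isoform_77901, whose values were among the highest of the members listed at 0 at 27 and 32 °C. Its 22 °C libraries held 170.24, 416.79 and 56.29 FPKM, and all 6 warmer libraries listed it at 0. Its high level was uneven between replicates, though the groups did not overlap. The third-ranked member was of the same kind, with 223.07, 86.73 and 36.61 FPKM in the 22 °C libraries and 0 in the other 6. The fifth-ranked member was steadier, with 44.56, 33.20 and 42.43 FPKM in the 22 °C libraries and again 0 in every warmer library. Replicate 3 was the lowest 22 °C library for the first and the third of these members, and replicate 2 for the fifth. Over the 48 members listed at 0 in all 6 warmer libraries, the mean at 22 °C had a median of 8.42 FPKM and ran from 3.50 to 214. Of all isoforms that passed the filter, 71 were at 0 in all 6 warmer libraries and above 0 in each 22 °C library. Of these, 64 met the conditions of the choice, and 48 stood within the first 200.

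Other high-ranking members kept a trace of signal. For the second-ranked member the 22 °C libraries held 235.15, 227.76 and 148.33 FPKM. Those of 27 °C held 2.07, 0.52 and 0.29 FPKM, and those of 32 °C held 0, 1.61 and 0.59 FPKM. Its lowest 22 °C value was 71.7 times its highest warmer value, the widest such gap among the 152 members with a warmer value above 0. For the fourth-ranked member the 22 °C libraries held 53.08, 73 and 64.1 FPKM, each 27 °C library held 0, and those of 32 °C held 1.58, 0 and 0 FPKM. Across the 152 members this gap had a median of 2.23 and was 2 or more in 89. In 13 members the gap was under 1.2, so these only just met the condition that the groups not overlap. The member at rank 100, in the middle of the list, held 7.80, 3.20 and 5.68 FPKM in the 22 °C libraries, 0 in each 27 °C library, and 0, 0 and 0.84 FPKM in those of 32 °C.

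A level mean from 27 to 32 °C did not always stand for level values in single libraries. In 87 of the 200 members at least 1 warmer library was at 0 and another reached 1 FPKM or more. The member at rank 78 was the most marked by its highest warmer value. Its values were 92.55, 78.29 and 81.91 FPKM in the 22 °C libraries, 32.68, 48.44 and 0 FPKM in the 27 °C libraries and 0, 60.71 and 44.83 FPKM in the 32 °C libraries. Here 1 library of each warmer temperature was at 0, while the others held 32.68 FPKM or more. For the member at rank 29 the values were 114.45, 170.37 and 85.89 FPKM in the 22 °C libraries, 0, 38.97 and 32.09 FPKM in the 27 °C libraries and 51.05, 11.46 and 3.34 FPKM in the 32 °C libraries. Both were picked out after their values were seen. The standard deviation of log2(FPKM + 1) within a temperature had a median of 0.50 at 22 °C, 0.37 at 27 °C and 0.51 at 32 °C over the members. Over all isoforms that passed the filter the medians were 0.34, 0.36 and 0.39. Members at 0 in every library of a temperature, 70 at 27 °C and 57 at 32 °C, have a standard deviation of 0. They lower the medians of the members at these temperatures. Whether a member counts as level depended on the pseudocount, the value added before taking logs. With 0.1 FPKM added, 115 of the 200 met all conditions, and the other 85 failed because the difference from 27 to 32 °C left the limits, upward in 44 and downward in 41.

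Members detected in all 9 libraries numbered 39, and for these a fold of mean FPKM can be given. Their mean at 22 °C had a median of 19.0 FPKM and ran from 5.83 to 4201. The 22 °C mean was 5.88 times the mean of the warmer libraries at the median, with a range of 3.40 to 26.8. Against 27 °C alone the median fold was 6.49, and against 32 °C alone it was 5.54. Only 15 members reached 1 FPKM in all 6 warmer libraries.

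Within these, 6 very abundant members formed a set of their own by level, with means of 1573 FPKM or more at 22 °C. The limit of 1000 FPKM that separates them was set after their values were seen. The most abundant, isoform_5999 at rank 141, had 4521.38, 5096.95 and 2985.06 FPKM in its 22 °C libraries. The 27 °C libraries held 620.73, 871.74 and 1011.82 FPKM, and the 32 °C libraries 815.58, 1188.09 and 972.73 FPKM. The groups of 27 and 32 °C overlapped, and even the lowest 22 °C value was 2.51 times the highest warmer value. Its mean was 4201 ± 1092 FPKM in the 22 °C libraries, 835 ± 198 in those of 27 °C and 992 ± 187 in those of 32 °C (SD, n = 3). The 22 °C mean was 4.599 times the mean of the warmer libraries.

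The other 5 abundant members showed much the same course at lower levels. The next in abundance, at rank 199, had 2486.55, 2751.34 and 1632.09 FPKM in the 22 °C libraries, 449.47, 514.45 and 642.43 FPKM in the 27 °C libraries and 671.41, 622.07 and 714.07 FPKM in the 32 °C libraries. Rank 191 had 2350.69, 2678.09 and 1660.12 FPKM in the 22 °C libraries, 456.67, 521.34 and 553.14 FPKM in the 27 °C libraries and 705.21, 640.66 and 613.26 FPKM in the 32 °C libraries. In both, replicate 2 was the highest and replicate 3 the lowest 22 °C library, as in isoform_5999. Rank 154 had 1867.83, 2178.28 and 1183.89 FPKM in the 22 °C libraries, 327.05, 326.87 and 425.22 FPKM in the 27 °C libraries and 493.44, 461.76 and 486.53 FPKM in the 32 °C libraries. Rank 184 had 1691.46, 2139.85 and 1076.51 FPKM in the 22 °C libraries, 302.23, 355.68 and 430.51 FPKM in the 27 °C libraries and 475.81, 442.63 and 445.9 FPKM in the 32 °C libraries. In ranks 154, 184 and 191 all 3 values at 32 °C lay above the 3 at 27 °C, although the difference stayed within the limits of the choice. Among the 200 members these were the only 3 with such an order, which 7.23% of all isoforms had, and 2 members had the opposite order, which 7.12% of all isoforms had. The limits on that difference hold both counts down. Rank 163 had 1632.65, 2047.7 and 1039.66 FPKM in the 22 °C libraries, 280.89, 312.36 and 407.26 FPKM in the 27 °C libraries and 380.53, 410.48 and 337.07 FPKM in the 32 °C libraries. Over the 6, the 22 °C mean was 3.802 to 4.599 times the mean of the warmer libraries.

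**Figure D4:**
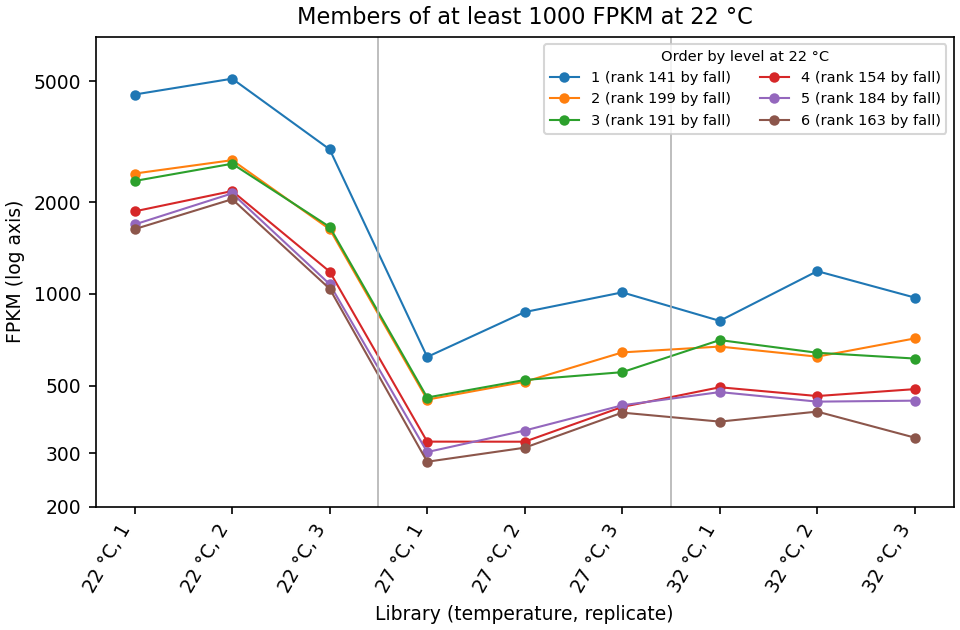
FPKM on a log axis in each library for the 6 members that average at least 1000 FPKM at 22 °C, with lines joining the values of 1 isoform. In all 6 the 3 values at 22 °C lie above the 6 warmer values, and replicate 3 is the lowest of the 22 °C libraries.

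The other 5 stayed near a fixed proportion to isoform_5999, with a shift between temperatures. The ratio of each of the other 5 to isoform_5999 changed by a factor of 1.35 to 1.66 between its lowest and its highest library. The ratio of mean FPKM was higher at 27 than at 22 °C in all 5, and higher again at 32 °C in 4. Since isoform_5999, at rank 141, had the lowest difference from 22 to 27 °C of the abundant members, the rise at 27 °C largely follows from taking it as the reference. For the member at rank 199 it was 0.545, 0.641 and 0.674 at 22, 27 and 32 °C, and for that at rank 191 0.531, 0.611 and 0.658. The shift was smaller for rank 154, with 0.415, 0.431 and 0.484, and for rank 184, with 0.389, 0.435 and 0.458. Rank 163, with 0.375, 0.400 and 0.379, was the one without a further step at 32 °C. For the 33 remaining members detected in all 9 libraries, the same factor was 2.85 at the least and 13.3 at the median. Of 74805 isoforms that passed the filter and were above 0 in every library, 8 besides isoform_5999 stayed within a factor of 1.66 of a fixed ratio to it. Among these 8 were the other 5 abundant members, and 7 of them met the conditions of the choice. The limit was taken from the abundant members themselves, so the count is a description. An isoform this close to a fixed ratio must fall much as isoform_5999 did, so that 7 of the 8 met the conditions was largely given. Low isoforms carry more counting noise and can keep such a ratio less easily. The sources used here do not say whether these isoforms belong to the same gene.

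Levels this high were shared by few isoforms, whose median difference from 22 to 27 °C moved with the scaling. Among 395 isoforms averaging at least 1000 FPKM at 22 °C, the difference from 22 to 27 °C had a median of -0.35, against 0.09 over all isoforms that passed the filter. When isoforms were grouped by their mean over all 9 libraries, which does not favour a high 22 °C value, the median at that level was -0.19 over 385 isoforms, with -0.07 after TPM and -0.37 after median-of-ratios scaling, but 0.04 after quantile normalization. After TPM, median-of-ratios and quantile scaling, the median of the 395 was -0.23, -0.53 and -0.05, and that of the 6 abundant members was -2.04, -2.34 and -1.96, against -2.16 as deposited. The 6 members took places 12 to 23 among the 395 when ordered by that difference, from the lowest. Of the 395, 15 met the conditions (3.80%), 6 of them within the first 200. At 100 to 1000 FPKM 8 of 1172 met them, at 20 to 100 FPKM 70 of 4985, at 10 to 20 FPKM 90 of 6949, at 5 to 10 FPKM 123 of 13123, and below 5 FPKM 137 of 74490. These counts go by the mean at 22 °C, which favours isoforms high there. At the lowest levels an isoform's own level also limits its difference, so nothing is read from how the shares differ.

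The members held 0.839% ± 0.181 of summed FPKM in the 22 °C libraries, 0.174% ± 0.0309 in those of 27 °C and 0.225% ± 0.0266 in those of 32 °C (SD, n = 3). By library the share was 0.855, 1.01 and 0.651% at 22 °C, 0.141, 0.179 and 0.202% at 27 °C, and 0.199, 0.252 and 0.223% at 32 °C. The 22 °C libraries stood apart from the others, while the ranges at 27 and 32 °C overlapped. The choice required the former of the FPKM of each member and favoured the latter. Most of the share came from the 6 abundant members, with 0.637% ± 0.152, 0.150% ± 0.0247 and 0.196% ± 0.0239 in the same order. The other 194 members held 0.202% ± 0.0288, 0.0241% ± 0.00712 and 0.0288% ± 0.00302 (SD, n = 3).

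The order of libraries within a temperature did not enter the choice. At 22 °C, replicate 2 was the highest of the 3 for 87 of 199 members without a tie (43.7%), replicate 3 for 58 (29.1%) and replicate 1 for 54 (27.1%). Over all isoforms that passed the filter, replicate 3 was the most often highest, in 40.6%, with 32.2% for replicate 2 and 27.2% for replicate 1. Replicate 3 was the lowest 22 °C library in 11 of the 11 members that averaged 100 FPKM or more at 22 °C. Among the 189 members below that level it was the lowest in 78. How often replicate 3 was the lowest over all isoforms of these levels was not counted. Neither number is therefore read as a trait of the members. At 27 °C, replicate 1 was the highest in 23.1% of 130 members, against 35.9% of all isoforms that passed the filter. At 32 °C, replicates 1, 2 and 3 were the highest in 30.3, 33.1 and 36.6% of 142 members, against 30.4, 38.6 and 31.0%.

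Values that the choice did not use can be had by leaving libraries out. In each of the 27 combinations of 1 library per temperature, the conditions were applied to the other 6 libraries, with at least 1 FPKM in 2 of these 6, and the 200 isoforms with the lowest difference were taken. The 3 unused values were then compared with each other. This way of leaving libraries out was added after the data were seen. The isoforms chosen on 6 libraries were largely other ones, with 49 to 67 of the 200 members among them.

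In these chosen isoforms the unused 22 °C value was above the unused value at 27 °C in 49.0 to 59.5% and below it in 13.5 to 24.5%, and the others were tied. Against the unused value at 32 °C it was above in 46.5 to 55.5% and below in 14.5 to 28.5%. The background was all isoforms that passed the filter in the 6 libraries used, a set that changed with the combination. Over these, the unused 22 °C value was below more often than above against 27 °C as deposited, with 39.8 to 46.8% above and 48.7 to 55.4% below. Against 32 °C it was above in 37.6 to 48.2% and below in 47.1 to 58.1% of them. After median-of-ratios scaling this background turned against 27 °C, with 49.2 to 50.5% above and 45.2 to 46.4% below. Against 32 °C it was then 47.8 to 49.9% above and 45.6 to 48.0% below. The unused 22 °C value of the chosen isoforms was more often above than below in all 27 combinations for both warmer temperatures, as it also was after TPM and median-of-ratios scaling. The size of the difference was far smaller in the unused values. The unused value at 27 °C minus that at 22 °C had a median of -1.07 to 0 on the log2(FPKM + 1) scale, against -3.62 to -3.22 in the libraries used for the choice. The unused 22 °C value was 0 in 31.5 to 43.0% of the chosen isoforms, against 8.54 to 10.2% of all isoforms. The unused values at 27 and 32 °C differed by less than 0.5 in 43.5 to 57.5% of them, against 52.2 to 57.5% of all isoforms. The combinations share libraries and isoforms are not replicates, so no p-value is attached. An isoform could also pass the filter through its used 22 °C values alone. Since the chosen isoforms were largely other ones than the members, these shares describe the chosen isoforms and are no test of the members as a set.

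**Figure D5:**
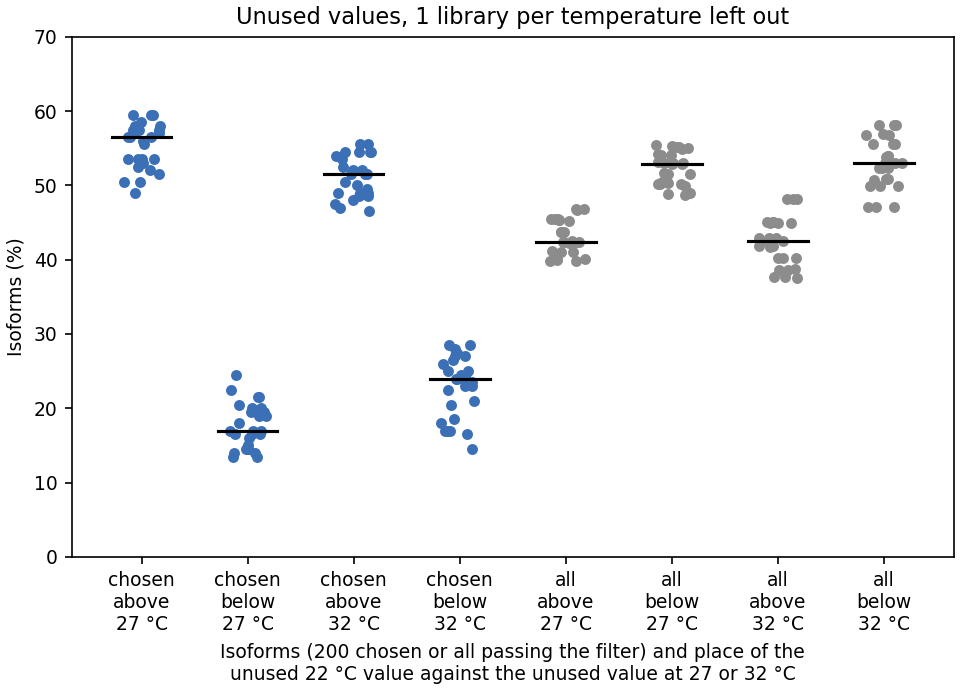
Percent of isoforms (vertical) in which the unused 22 °C value was above or below the unused value at 27 or 32 °C. Blue stands for the 200 isoforms chosen on 6 libraries, and grey for all that passed the filter in the same 6. Each point is 1 combination of libraries left out, and a line marks the median of the 27. Against 27 °C the blue points lie at 49.0 to 59.5% above and at 13.5 to 24.5% below.

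With a single library left out and the conditions applied to the other 8, an unused 22 °C value lay above all 6 warmer values in 57.0 to 63.5% of the 200 isoforms chosen, and an unused warmer value below all 3 values at 22 °C in 78.0 to 91.0%. The values on the opposite side had themselves been chosen as low or high, which raises these shares even without a difference, so nothing is read from them. The same shares over all isoforms that passed the filter in the 8 libraries kept, 11.7 to 14.1% and 22.6 to 27.4%, carry no such choice and are no measure of what it gives.

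The filter itself bears on the members. Of the 200 members, 78 were below 1 FPKM in all 6 warmer libraries and passed the filter only through their 22 °C values. Without any 22 °C library exactly these 78 drop out, and 122 members meet the conditions in each of the 3 cases.

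In limma's moderated test across all isoforms that passed the filter, with a Benjamini-Hochberg adjusted p below 0.05, 94 of the 200 members were called lower at 27 than at 22 °C. Of all isoforms tested, 0.316% were called so. For 32 against 22 °C, 105 members were called lower, with 0.789% of all isoforms. For the warmer libraries pooled against 22 °C it was 130 members, with 0.848% of all isoforms. The absence of overlap between the 6 warmer values and the 22 °C values, which the choice required, was found in 3.78% of all isoforms. For 32 against 27 °C, 0 members were called by limma, with 0.120% of all isoforms called in either direction. The choice used these same contrasts, so the counts describe how many members had a small spread and nothing is read from their excess over the background. The comparisons with 22 °C share its 3 libraries.

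Members listed at 0 in all 6 warmer libraries were called the most often in the pooled comparison, 47 of 48, and their warmer values had no spread. Of the 39 detected in all 9 libraries 26 were called, among them all 6 abundant members, and of the 113 between these kinds 57 were called. The counts were lower without a 22 °C library, and so were the falls called over all isoforms. With the filter over all 9 libraries, all 200 members stayed in. Then 71, 81 and 99 members were called in the pooled comparison without replicate 1, 2 or 3 of 22 °C. At 27 °C it was 53, 58 and 81, and at 32 °C 67, 73 and 88. Falls over all 101114 isoforms numbered 183, 200 and 386 in the pooled comparison, 104, 114 and 229 at 27 °C, and 230, 237 and 397 at 32 °C. With the filter over the 8 libraries kept, 122 members were left. Of these, 10, 9 and 25 were called in the pooled comparison, 5, 4 and 16 at 27 °C, and 9, 9 and 21 at 32 °C. Of the 98132, 97726 and 97375 isoforms then tested, 60, 60 and 219 were called lower in the pooled comparison. At 27 °C it was 35, 29 and 116 of them, and at 32 °C 115, 107 and 262. For 27 against 22 °C, 45, 49 and 46 members were called when replicate 1, 2 or 3 of 27 °C was left out. Falls over all isoforms tested were then 121 of 97143, 128 of 97362 and 120 of 97539. For 32 against 22 °C, 63 and 67 were called when replicate 2 or 3 of 32 °C was left out, and falls over all isoforms tested were 262 of 96698 and 296 of 97053.

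A mirror choice, with a rise of 1.5 or more to 27 °C, the same limits from 27 to 32 °C and all 6 warmer values above every 22 °C value, was met by 388 isoforms, against 443 for the members' conditions. The larger of these numbers changed with the scaling: in the same order they were 281 against 240 after rescaling to TPM, 288 against 610 after median-of-ratios scaling and 338 against 502 after quantile normalization. None of the 388 averaged 1000 FPKM or more at 22 °C, where 15 of the 443 did. That difference follows from the conditions, since 22 °C is the low side of the mirror choice. In the 200 isoforms with the largest mirror rise, the mean at 22 °C had a median of 1.39 FPKM and that of the warmer libraries 11.2. Of these, 19 were at 0 in all 3 libraries at 22 °C. On their high side, these 200 averaged up to 2112 FPKM over the warmer libraries. The members' mean at 22 °C had a median of 10.5 FPKM and reached 4201.

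The isoform numbers, which the choice did not use, were low more often among the members. Numbers up to 93000 belonged to 146 of the 200 members (73.0%) and to 42.4% of all isoforms that passed the filter. Among isoforms that averaged 5 FPKM or more at 22 °C, which most members did, the share was 62.6%. The limit of 93000 was set after the numbers were seen, and the sources used here do not say what the numbering stands for. The smallest FPKM above 0, which falls with transcript length and library depth and rises with abundance, had a median of 1.33 for the members and 1.04 for all isoforms that passed the filter. The choice bears on this value, since in members listed at 0 in all warmer libraries it is a 22 °C value. Nothing on length or depth is read from it.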

How the data were processed

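RNA abundance was analysed in 9 eyestalk libraries, 3 at each of 22, 27 and 32 °C. The authors deposited FPKM per isoform, per the file headers, in 1 column per library and to 2 decimals. The tools Bowtie2 and RSEM appear, with no version, per the submitters' processing notes. RSEM divides reads that match several isoforms between them, which can move a level from one isoform to a similar one. Settings, transcript set and genome build: not given in the sources used here. Sequencing on the DNBSEQ platform is stated per the labels' protocols. Columns were assigned by library name, 0 columns were unused, and no 2 libraries held identical values.

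The members and all lists and limits were chosen with earlier results of these data known. Medians, counts and shares were computed with pandas 2.3.3 in Python 3.11.15. For tests, 1 model over all 9 libraries was fitted to log2(FPKM + 1) in limma 3.58.1 (R 4.3.3) with a variance trend, and read two-sided. Its prior degrees of freedom were 1.98, and p-values were adjusted over 101114 isoforms. By the naming rule, the member with the lowest difference and the most abundant member detected in all 9 libraries are printed by identifier, and the 5 first of each order and the middle rank without. Gene and marker lists could not be filled. Read totals are unknown, so no counting interval is given. Alternatives covered the pseudocount, filter, scaling, libraries left out and the design of the fit.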

Additional observations from a re-analysis of the deposited data

How the results depend on the processing

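The 443 isoforms that met the conditions became 212 with a minimum of 5 FPKM and 240 after rescaling to TPM. They became 1030 and 223 with limits of -1 and -2 for the difference from 22 to 27 °C, 242 and 688 with limits of 0.25 and 1 for the difference from 27 to 32 °C, and 827 without the condition on single libraries. Leaving out a library gave 458 to 598, and 829, 761 and 896 when replicate 1, 2 or 3 of 22 °C was left out and the filter asked for 2 of 8 libraries. Of the 200 members, 115 and 99 met the conditions with pseudocounts of 0.1 and 0.01, 113 with a minimum of 5 FPKM, 175 after TPM, and 122 to 160 with a library left out. Their median difference from 22 to 27 °C was -4.98 and -6.93 with those pseudocounts, -2.02 after TPM, -2.73 after median-of-ratios scaling and -2.69 to -2.59 with a library left out. Median-of-ratios scaling moved the median over all isoforms that passed the filter from 0.09 to -0.03 for that difference. Members below 1 FPKM in all 6 warmer libraries numbered 78, against 48 listed at 0.

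The number of isoforms tested differed, with 101114 in the main fit, 250450 with no filter and 34606 with a minimum of 5 FPKM. A lower count is therefore not always a lower share. The 320 falls called for 27 against 22 °C became 194 and 163 with pseudocounts of 0.1 and 0.01, 197 with no filter, 189 with a minimum of 5 FPKM and 29 to 481 with a library left out. The 798 for 32 against 22 °C became 418 with no filter, 441 with a pseudocount of 0.01, 488 with a minimum of 5 FPKM, 316 with only those groups fitted and 107 to 601 with a library left out. The 857 for the pooled comparison became 442 with no filter, 478 with a pseudocount of 0.01 and 60 to 799 with a library left out. With a minimum of 5 FPKM they numbered 572. The 121 calls for 32 against 27 °C became 47 with a minimum of 5 FPKM, 66 with only those groups fitted and 44 to 191. Among the members, the 94 called at 27 °C became 61 and 25 with the smaller pseudocounts, 27 with the minimum of 5 FPKM, for which 113 members were left, and 4 to 98. The 105 at 32 °C became 46, 38, 61 with only those groups and 9 to 95. The 130 in the pooled comparison became 65, 53 and 9 to 118. With the filter over all 9 libraries, leaving out replicate 1, 2 or 3 of 22 °C gave 104, 114 and 229 falls at 27 °C, 230, 237 and 397 at 32 °C, 183, 200 and 386 in the pooled comparison, and 79, 96 and 97 calls for 32 against 27 °C; members called were 53, 58 and 81, 67, 73 and 88, and 71, 81 and 99. Fitting only the groups compared is no alternative for the pooled comparison. The cause of these changes was not tested, beyond the members that a filter removes.

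Replicate numbers were not taken to pair libraries, since the labels tie them to no tank, animal or day, and none of the 9 same-numbered pairs correlated above 0.1 in their deviations (-0.0190 to 0.0525). With the replicate block, falls numbered 55, 206 and 154 for 27, 32 and pooled against 22 °C, 34, 61 and 73 of them members, and 18 isoforms were called for 32 against 27 °C. By their own number, 3 of 9 libraries were the closest.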

Other observations

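A further 243 isoforms met the conditions but lay beyond the first 200, with a difference from 22 to 27 °C of -2.071 to -1.504. They averaged a median of 5.25 FPKM at 22 °C, with a highest value of 5820, and a median of 1.003 FPKM in the warmer libraries. Although their differences were smaller, they held more of summed FPKM than the members, with 1.49% ± 0.317 in the 22 °C libraries, 0.474% ± 0.0560 in those of 27 °C and 0.515% ± 0.0261 in those of 32 °C (SD, n = 3). Among them were 9 isoforms averaging 1000 FPKM or more at 22 °C.

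The 200 isoforms with the largest mirror rise held 0.0439, 0.0631 and 0.203% of summed FPKM in replicates 1, 2 and 3 at 22 °C. Replicate 3 was thus the highest 22 °C library for the mirror isoforms and the lowest for the members, whose shares there were 0.855, 1.01 and 0.651%. At 27 and 32 °C the mirror isoforms held 0.509 to 0.936%.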
